A study of Mus musculus with 14 samples.

Results

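The promoters of 5 genes that direct cartilage and bone formation, Runx2, Sp7, Sox5, Sox6 and Acan, were followed in promoter-capture Hi-C (PCHi-C) of mouse cranial neural crest cells (CNCCs). PCHi-C enriches the ligation products of captured promoter fragments, the baits, and so lists the HindIII fragments that a promoter contacts. A bait was taken as a member if a GENCODE vM21 start site of a listed gene lay on it, and 7 of 22171 baits did, with 441 of the 837141 same-chromosome pairs listed in any library. The study asked how regulatory regions far from promoters contact their genes in the prominences of the developing face and in the outer ear.

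The 14 libraries fell into 7 groups of 2 replicates. Stages are given as embryonic days (E). At E10.5, wild-type CNCCs came from the second pharyngeal arch (PA2), from the maxillary (Mx) and the mandibular (Md) process of the first arch, and from the frontonasal process (FNP). Wild-type CNCCs of the pinna, the outer ear that forms from PA2, were taken at E12.5 and E14.5. All wild-type cells carried Wnt1::Cre, which is active in the neural crest lineage, and a ROSA-RFP reporter, and were sorted for red fluorescence. The remaining group was E10.5 PA2 from embryos with EGFP in both copies of Hoxa2 (Hoxa2EGFP/EGFP, a knockout), sorted for green fluorescence, so that genotype and sorting gate cannot be told apart. Per the methods the replicates were biologically independent. The tables hold no expression values, so neither the knockout nor the labelled cell type could be checked from marker genes.

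Runx2 is the transcription factor that commits mesenchymal cells to the osteoblast lineage, and Sp7 (osterix) acts downstream of it in bone formation. Sox5 and Sox6 are related SoxD factors that work with Sox9 in chondrocytes, where Acan, a target of that trio, encodes aggrecan, the large proteoglycan of cartilage matrix. Cranial neural crest cells give rise to bone and cartilage of the face and to the cartilage of the pinna.

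Each listed pair carries a CHiCAGO score, which measures how far the reads joining a bait and another fragment exceed those expected at that distance in the same library. The tables list scores of 5 or more, and a pair that a library did not list was given 0, which stands for any score below 5. Bait strength is the sum of a bait's listed same-chromosome scores in a library. The libraries listed between 113670 and 186248 same-chromosome pairs, with the fewest in both knockout libraries, and read depth was not given in the sources used here. Pairs between chromosomes made up 46.5% of the list of Md replicate 1 and 62.7% of that of E12.5 pinna replicate 2, against 2.64% to 5.61% in the other libraries, and the names of both say that they were merged. Calls were also counted without these 2 libraries.

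The baits did not cover all start sites. Runx2 had a distal promoter bait of 714 bp at chr17:44814650-44815363 and a proximal promoter bait at chr17:44734916-44741987 (GRCm38/mm10), which hold 6 of the 11 start sites of the gene. The single Sp7 bait at chr15:102362526-102368142 held all 3 start sites. Sox6 had 2 neighbouring baits that meet at a HindIII site. One, at chr7:116036620-116041381 and called the Sox6 coding bait here, holds a start site of a protein-coding transcript and the start of the divergent gene 1110004F10Rik. The other, at chr7:116031622-116036619 and called the Sox6os bait, holds starts of noncoding Sox6 transcripts and of the antisense RNA Sox6os. Together they hold 4 of the 13 start sites of Sox6. Other protein-coding starts of the gene, such as that at chr7:116031047, lay on no bait. The Sox5 bait at chr6:144779626-144785054 held only 2 starts of noncoding transcripts, of 12 start sites in all, and no bait held a protein-coding start of Sox5. The Acan bait at chr7:79050429-79056152 held 1 of the 2 start sites of Acan and also the start of the antisense gene Gm26633.

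Promoters on or at the edge of the baits are shown because the cut site decides what each bait can report. They are given 5′ to 3′ on the minus strand for Runx2 and Sox6 and on the plus strand for Acan, from RefSeq for GRCm38, with 250 bases before and 50 after the start. Capitals mark the HindIII site AAGCTT, the RUNX core TGTGGT or its reverse complement ACCACA, and the SOX core AACAAT or its reverse complement ATTGTT.
Runx2 distal promoter, chr17:44814578-44814877: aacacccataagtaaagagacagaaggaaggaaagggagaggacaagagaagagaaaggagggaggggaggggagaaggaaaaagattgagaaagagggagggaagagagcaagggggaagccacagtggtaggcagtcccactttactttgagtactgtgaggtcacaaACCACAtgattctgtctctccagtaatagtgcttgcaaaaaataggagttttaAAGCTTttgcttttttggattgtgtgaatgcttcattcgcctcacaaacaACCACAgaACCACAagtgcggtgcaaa
Sox6 promoter at the coding bait, chr7:116038695-116038994: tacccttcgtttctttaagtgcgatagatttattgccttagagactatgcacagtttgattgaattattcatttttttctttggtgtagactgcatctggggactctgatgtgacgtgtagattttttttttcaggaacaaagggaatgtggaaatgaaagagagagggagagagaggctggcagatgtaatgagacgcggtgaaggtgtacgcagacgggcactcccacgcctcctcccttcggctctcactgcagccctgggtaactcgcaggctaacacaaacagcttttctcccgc
Acan promoter, chr7:79052976-79053275: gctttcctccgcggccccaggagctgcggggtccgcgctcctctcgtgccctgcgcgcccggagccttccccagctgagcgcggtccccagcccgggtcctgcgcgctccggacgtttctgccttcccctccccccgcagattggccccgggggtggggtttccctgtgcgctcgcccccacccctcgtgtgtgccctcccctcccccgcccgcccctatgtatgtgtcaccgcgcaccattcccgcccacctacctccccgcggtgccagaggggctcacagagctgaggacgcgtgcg

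In the Runx2 distal promoter the HindIII site lies close to the start, so that the upstream part of the window is on the bait, while the window's own start, at 44814627, is on the next fragment, which is not a bait. Of the distal starts of the gene, only the one at 44814797 is on the bait. That window also holds 3 matches to the RUNX core, which 16.8% of 32851 RefSeq promoters of that length hold at least once. A HindIII site was found in 7.45% of these promoters. The Sox6 and Acan windows held no match to either core, and the Acan window, at 74% G and C, held 3 matches to GGGCGG or its reverse complement CCGCCC, a core bound by SP family factors, which 35.7% of the promoters hold. A match describes letters only. Of the listed genes, 4 had a RefSeq promoter entry.

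Over all 14 libraries the 2 Sox6 baits were among the strongest baits of the genome and the Sox5 bait was near the middle. The median percentile of bait strength among all baits was 97.3 for the Sox6 coding bait, 96.4 for the Sox6os bait, 83.8 for the Runx2 proximal bait, 79.3 for Sp7, 68.8 for Acan, 55.7 for the Runx2 distal bait and 43.4 for Sox5. Of the 441 member pairs, 194 were listed in 1 library only and 146 in at least 4, which was the minimum for a test, so 295 were not tested. Contacts of the Sox6, Runx2 and Sox5 baits were long and those of Sp7 and Acan short. The median distance was 825 kb for the Sox6 coding bait, 815 kb for the Sox6os bait, 583 kb for the Runx2 distal and 565 kb for the proximal bait, 125 kb for Acan and 78.3 kb for Sp7, and the single such pair of Sox5 spanned 1478 kb. Pooled over the 146 pairs the median was 668 kb and 78.8% lay beyond 500 kb, against a median of 301 kb and 29% among all 159013 pairs listed in at least 4 libraries. Of these 146 pairs, 94 belonged to the Sox6 baits.

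**Figure D1:**
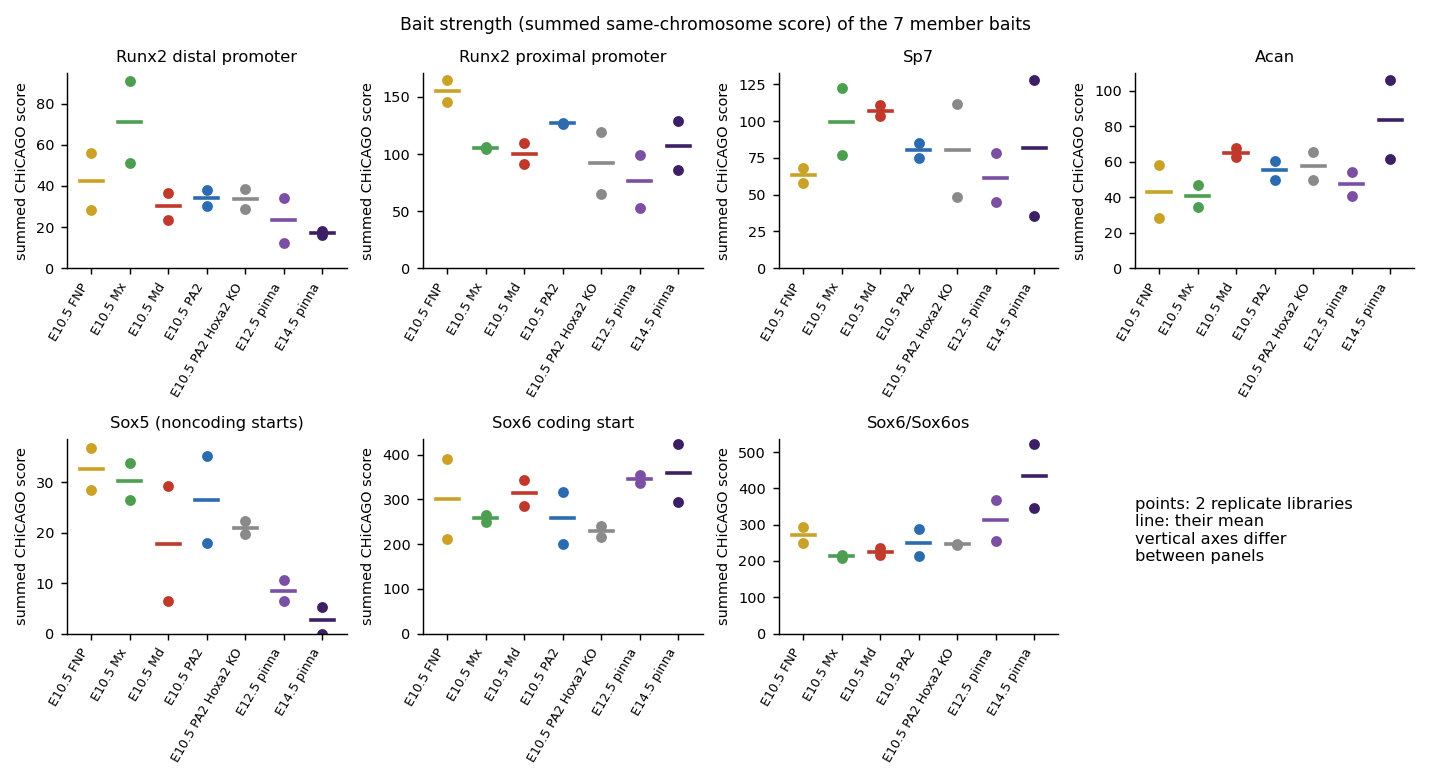
Bait strength, the summed same-chromosome CHiCAGO score (vertical axis, starting at 0, with a different range in each panel), of the 7 member baits in the 7 groups. Points are the 2 libraries of a group and lines their mean. The Sox5 bait had its lowest group mean, 2.68, in E14.5 pinna, and the Sox6os bait its highest, 433, in the same group.

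Bait strength was compared on the scale log2(strength + 5) with limma, fitted to all 21991 baits listed in at least 4 libraries. From E10.5 PA2 to pinna (mean of E12.5 and E14.5), no member bait of 7 passed an adjusted p of 0.05 and 2 had an unadjusted p below 0.05, with 484 baits, 2.2% of all, called (280 higher and 204 lower). All baits together had a median difference of 0.15 in this comparison, so that changes are to be read relative to it. With equal numbers of top-scoring pairs in each library that median was 0.01 and the calls were 203 higher and 273 lower, and after quantile normalization it was −0.03 with 254 higher and 325 lower. Between E12.5 and E14.5 pinna, 0 of 7 passed (0 unadjusted) beside 0.127% of all baits. Between knockout and wild-type PA2, 0 of 7 passed (0 unadjusted) beside 1.22%. Among the 4 E10.5 wild-type populations, 0 of 7 passed an F test (0 unadjusted), as did 0% of all baits.

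Because only 2 PA2 libraries stood for the earlier stage, the pinna was also set against all 4 E10.5 wild-type populations. The pinna forms from PA2, and FNP, Mx and Md are other prominences, so stage and position cannot be told apart here. The comparison was added after seeing the data. In it 1961 baits, 8.92%, were called, and 2 of 7 member baits: Sox5 was lower (4.24% of all baits were) and the Sox6os bait was higher (4.67%). The number of member baits called fell to 0 without Mx replicate 1, without Md replicate 1, without PA2 replicate 2 or without E14.5 pinna replicate 2. It fell to 1 without FNP replicate 1, Mx replicate 2, Md replicate 2, either knockout library or E12.5 pinna replicate 1, and with both merged libraries left out.

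The Runx2 promoters contacted regions on both sides of the gene, and none of these contacts passed the test in any comparison. The strength of the distal bait was 38.1 and 30.3 in PA2, 34.3 and 12.05 in E12.5 pinna, and 18.2 and 16.1 in E14.5 pinna. In the other groups it was 56.2 and 28.5 in FNP, 90.8 and 50.95 in Mx, 36.5 and 23.65 in Md, and 38.5 and 28.8 in the knockout. The highest value was in an Mx library and the lowest in a pinna library, but PA2 and E12.5 pinna overlapped, and the difference from PA2 to pinna was −0.70 (SE 0.48, limma adjusted p = 0.543). In the order of group means, Mx stood above FNP, PA2, the knockout, Md, E12.5 and E14.5 pinna, and only the gap between Mx and FNP was larger than the larger SD of the pair, with their libraries still overlapping.

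At 7072 bp against 714 bp, the Runx2 proximal bait was longer than the distal one, and it was stronger in every library. Its strength was 126 and 127 in PA2, 52.4 and 99.5 in E12.5 pinna, and 85.7 and 129 in E14.5 pinna. It reached 165 and 146 in FNP, the highest group, and was 104 and 106 in Mx, 91.3 and 109 in Md, and 64.8 and 119 in the knockout. FNP lay above PA2, the next group, by more than the larger SD, and no later step in the order did. From PA2 to pinna the difference was −0.51 (SE 0.32, limma adjusted p = 0.491).

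Both Runx2 baits shared fragments. All 6 fragments that the distal bait contacted in at least 4 libraries were also among the 22 of the proximal bait, 27.3% of the latter. Upstream of Runx2 the contacts lay in and before Cdc5l, which encodes a splicing factor. Downstream they lay in Clic5 and, for the proximal bait, also in 2 intergenic fragments, chr17:44456994-44458145 and chr17:44459200-44460558, 279 and 277 kb away and listed in 8 and 5 libraries. The Cdc5l intron fragment chr17:45402600-45403687, 666 kb from the proximal start, was listed for the proximal bait in all 8 wild-type E10.5 libraries, with scores from 7.38 to 11.3. It was listed in neither knockout library and in 2 of the 4 pinna libraries, at 5.31 in E12.5 replicate 2 and 7.40 in E14.5 replicate 2. The tests of this fragment missed the threshold both for the knockout (difference on the asinh scale −2.90, SE 0.91, adjusted p = 0.171) and for pinna against PA2 (adjusted p = 0.423).

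The adjoining Cdc5l fragment chr17:45399922-45402599 had the highest mean score of the proximal bait, 6.27, and was listed in 11 libraries. For the distal bait the fragment listed most often was chr17:45402600-45403687, in 8 libraries, with a highest score of 12.3 in Mx replicate 1. Downstream, the Clic5 intron fragment chr17:44261252-44268568 lay 472 kb from the proximal start and was listed in 8 libraries for the proximal bait and in 6 for the distal bait. None of the 4 pinna libraries listed it for the distal bait, whose scores in those 6 ran up to 7.34. Summed over the whole upstream cluster, chr17:45226775-45404513, the score of the proximal bait was 63.8 and 61.8 in PA2, 23.1 and 59.98 in E12.5 pinna, and 54.1 and 71.5 in E14.5 pinna. It was highest in FNP, at 126 and 98.8, and the ranges of PA2 and E14.5 pinna overlapped.

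**Figure D2:**
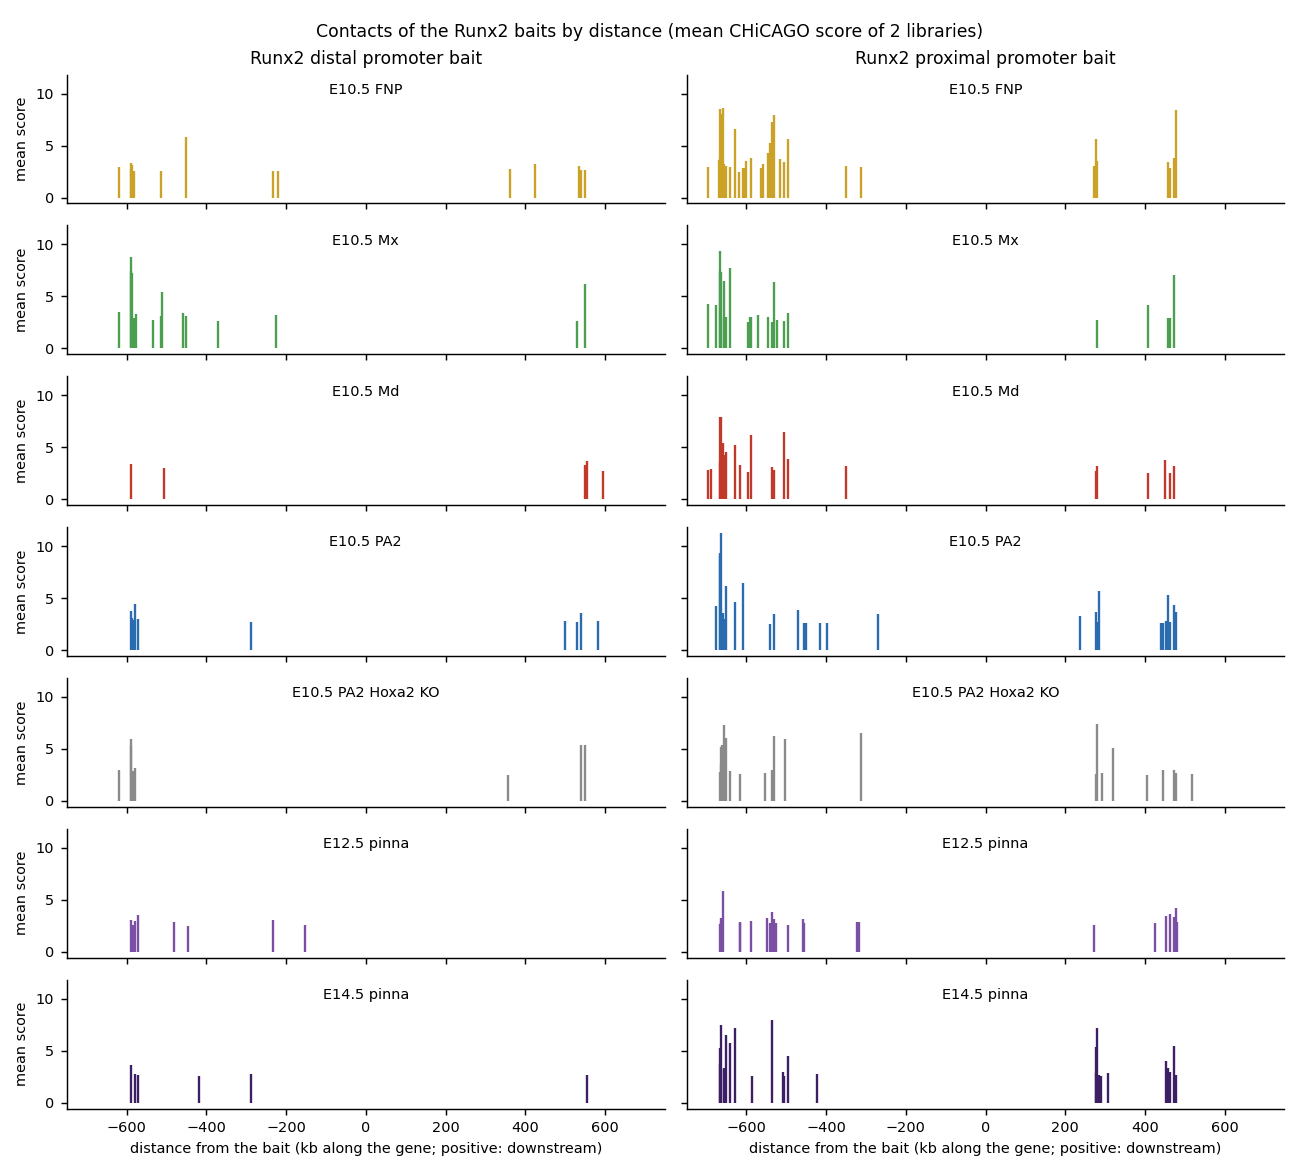
Mean CHiCAGO score over 2 libraries (vertical axis) of each fragment contacted by the Runx2 distal (left) and proximal (right) bait, against its distance along the gene from the start site (horizontal axis, kb, positive downstream), for the 7 groups. A fragment that only 1 of the 2 libraries listed enters with 0 for the other, and 5 contacts of the distal bait lie outside the range drawn. The proximal bait shows the upstream cluster toward Cdc5l in all 7 groups, with its highest sums in FNP.

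The Sp7 promoter contacted other promoters nearby. Of its 16 contacts listed in at least 4 libraries, 68.8% ended on another bait, and their median distance was 78.3 kb. Of all pairs listed that often 16.9% did, at a median distance of 301 kb, so these shares are not matched for distance. The contact with the bait of Aaas and Gm36246, 14.8 kb away, was listed in all 14 libraries with scores from 7.19 to 13.1. That fragment also holds the end of the Sp7 gene itself. The bait of Aaas and Myg1, 29.5 kb away, was listed in 13 libraries and that of Soat2, a cholesterol acyltransferase, 216 kb away, in 12.

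The Soat2 contact held the highest score of the bait. In E10.5 it was 10.3 and 12.15 in FNP, 8.37 and 5.94 in Mx, 7.62 and 12.02 in Md, 9.22 and 11.3 in PA2, and 17.5 and 12.1 in the knockout. It was 0 and 9.10 in E12.5 pinna and 7.97 and 0 in E14.5 pinna. Every E10.5 library listed it and 1 library of each pinna stage did not, yet the ranges overlapped and the test missed the threshold (adjusted p = 0.448 for pinna against PA2). The baits of Mfsd5 (9 libraries), Igfbp6, which encodes a binding protein of insulin-like growth factors (8), Spryd3, Itgb7 and Amhr2 (7 each) were contacted less often.

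Sp7 bait strength differed widely between replicates of the pinna. It was 85.2 and 75.0 in PA2, 78.1 and 44.8 in E12.5 pinna, and 128 and 35.3 in E14.5 pinna, so that the E14.5 replicates enclosed all other libraries. It was 57.9 and 68.4 in FNP, 123 and 76.7 in Mx, 111 and 103 in Md, and 112 and 48.7 in the knockout. The difference from PA2 to pinna was −0.31 (SE 0.43, adjusted p = 0.804). In the order of group means only the step from PA2 to FNP exceeded the larger SD. The difference changed sign, to 0.12, without E14.5 pinna replicate 2.

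The Acan promoter contacted 1 compact region upstream of the gene in every group. The 7 fragments listed in at least 4 libraries all lay between 107 kb and 132 kb upstream, at chr7:78919461-78949126. This region takes in the end of Isg20 and the unclassified transcript Gm44815. The strongest, the intergenic fragment chr7:78924556-78927869, 127 kb upstream, was listed in all 14 libraries.

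At that fragment the score was 8.34 and 7.66 in PA2, 10.1 and 6.68 in E12.5 pinna, and 10.8 and 13.7 in E14.5 pinna. It was 8.02 and 8.25 in FNP, 9.96 and 6.78 in Mx, 8.27 and 9.93 in Md, and 9.07 and 9.67 in the knockout. The 2 E14.5 libraries were the highest, and the ranges of PA2 and E12.5 pinna overlapped, with an adjusted p of 0.680 for pinna against PA2. Summed over the whole region, the score was 43.2 and 35.5 in PA2, 28.45 and 25.3 in E12.5 pinna, and 56.5 and 50.7 in E14.5 pinna. The sum was 22.9 and 27.4 in FNP, 21.4 and 26.3 in Mx, 45.4 and 41.7 in Md, and 39.0 and 55.2 in the knockout. Knockout replicate 2 thus lay above E14.5 replicate 2. No Acan contact passed the test in any comparison.

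Acan bait strength was 60.5 and 49.9 in PA2, 40.8 and 54.4 in E12.5 pinna, and 61.6 and 106 in E14.5 pinna. It was 28.0 and 58.0 in FNP, 34.4 and 46.7 in Mx, 62.5 and 67.8 in Md, and 49.9 and 65.3 in the knockout. E14.5 pinna had the highest mean, yet no step in the order of group means exceeded the larger SD, and the difference from PA2 to pinna was 0.16 (SE 0.38, adjusted p = 0.895), with a sign that turned to −0.025 without E14.5 pinna replicate 2.

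**Figure D3:**
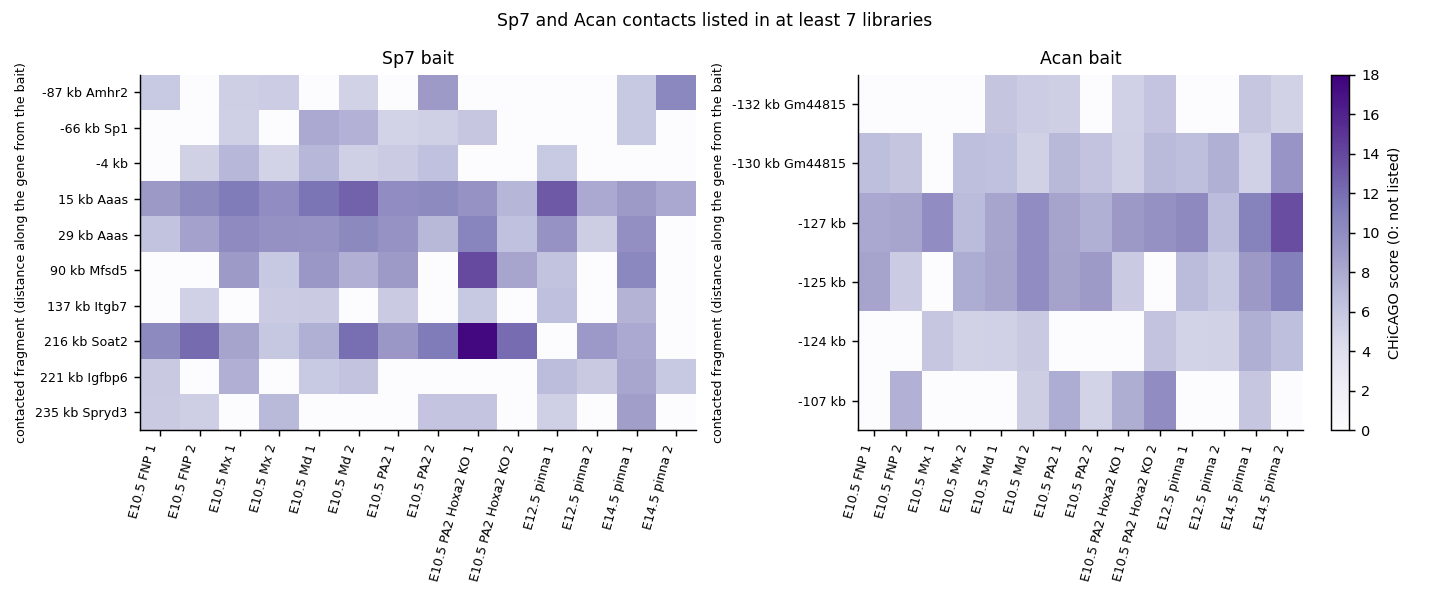
CHiCAGO score (colour, 0 where not listed) of the fragments contacted by the Sp7 bait (left) and the Acan bait (right) in at least 7 libraries, by library (columns) and distance along the gene from the start site (rows, positive downstream; a gene name is given where the fragment is its bait or overlaps it). The Aaas row of the Sp7 bait at 15 kb and the Acan row at −127 kb are filled in all 14 libraries.

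The Sox5 bait was the weakest of the 7 by median percentile, and its lowest group means were in the pinna. Its strength was 17.9 and 35.2 in PA2, 6.41 and 10.65 in E12.5 pinna, and 5.36 and 0 in E14.5 pinna. In FNP it was 36.9 and 28.5, in Mx 33.9 and 26.45, in Md 29.2 and 6.39, and in the knockout 22.3 and 19.75. All 4 pinna libraries lay below both PA2 libraries, and Md replicate 2 lay among them. The difference was −1.63 (SE 0.61, adjusted p = 0.196) against PA2 and −1.60 against all 4 E10.5 populations (adjusted p = 0.0241). In the order of group means only the step from E12.5 to E14.5 pinna exceeded the larger SD. Since the bait holds no protein-coding start, these values describe the neighbourhood of the noncoding starts.

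Only 1 fragment was contacted by the Sox5 bait in at least 4 libraries, the intergenic fragment chr6:143298013-143310919, 1478 kb downstream, beyond the end of the gene. It was listed in 6 libraries, 5 of them wild-type E10.5 and 1 knockout, with scores from 6.39 to 9.09, and in none of the 4 pinna libraries.

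The main Sox6 contacts lay in the intergenic interval between the end of Sox6 and Insc, and some of the fragments listed differed between E10.5 and pinna. A middle stretch, 797 to 865 kb downstream of the promoter, was contacted in every library. A far stretch had its highest sums in the pinna at E12.5 and E14.5, and a near stretch, contacted in every E10.5 library, had few listed scores there. In the comparison with PA2, 5 of the 146 member pairs were called at an adjusted p below 0.05, where 1.57% of all 159013 pairs were. Of these, 4 were higher in the pinna (0.708% of all pairs) and 1 was lower (0.857%), and all 5 belonged to the Sox6 baits. Of the 4 higher pairs, 3 passed the 4-library filter only through the pinna libraries. The lower pair was listed in no pinna library and passed that filter only through E10.5 libraries. Against all 4 E10.5 populations, which differ from the pinna in position too, 13 were called beside 4.33% of all pairs. Of these, 8 were higher (1.61%) and 5 lower (2.72%), again all of Sox6. The same 3 pairs were among these 8. Of the 5 lower pairs, 3 were listed in no pinna library and passed the filter only through E10.5 libraries. Neighbouring fragments and neighbouring baits lie at nearly the same distance and in the same surroundings, so these pairs are not independent of each other.

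**Figure D4:**
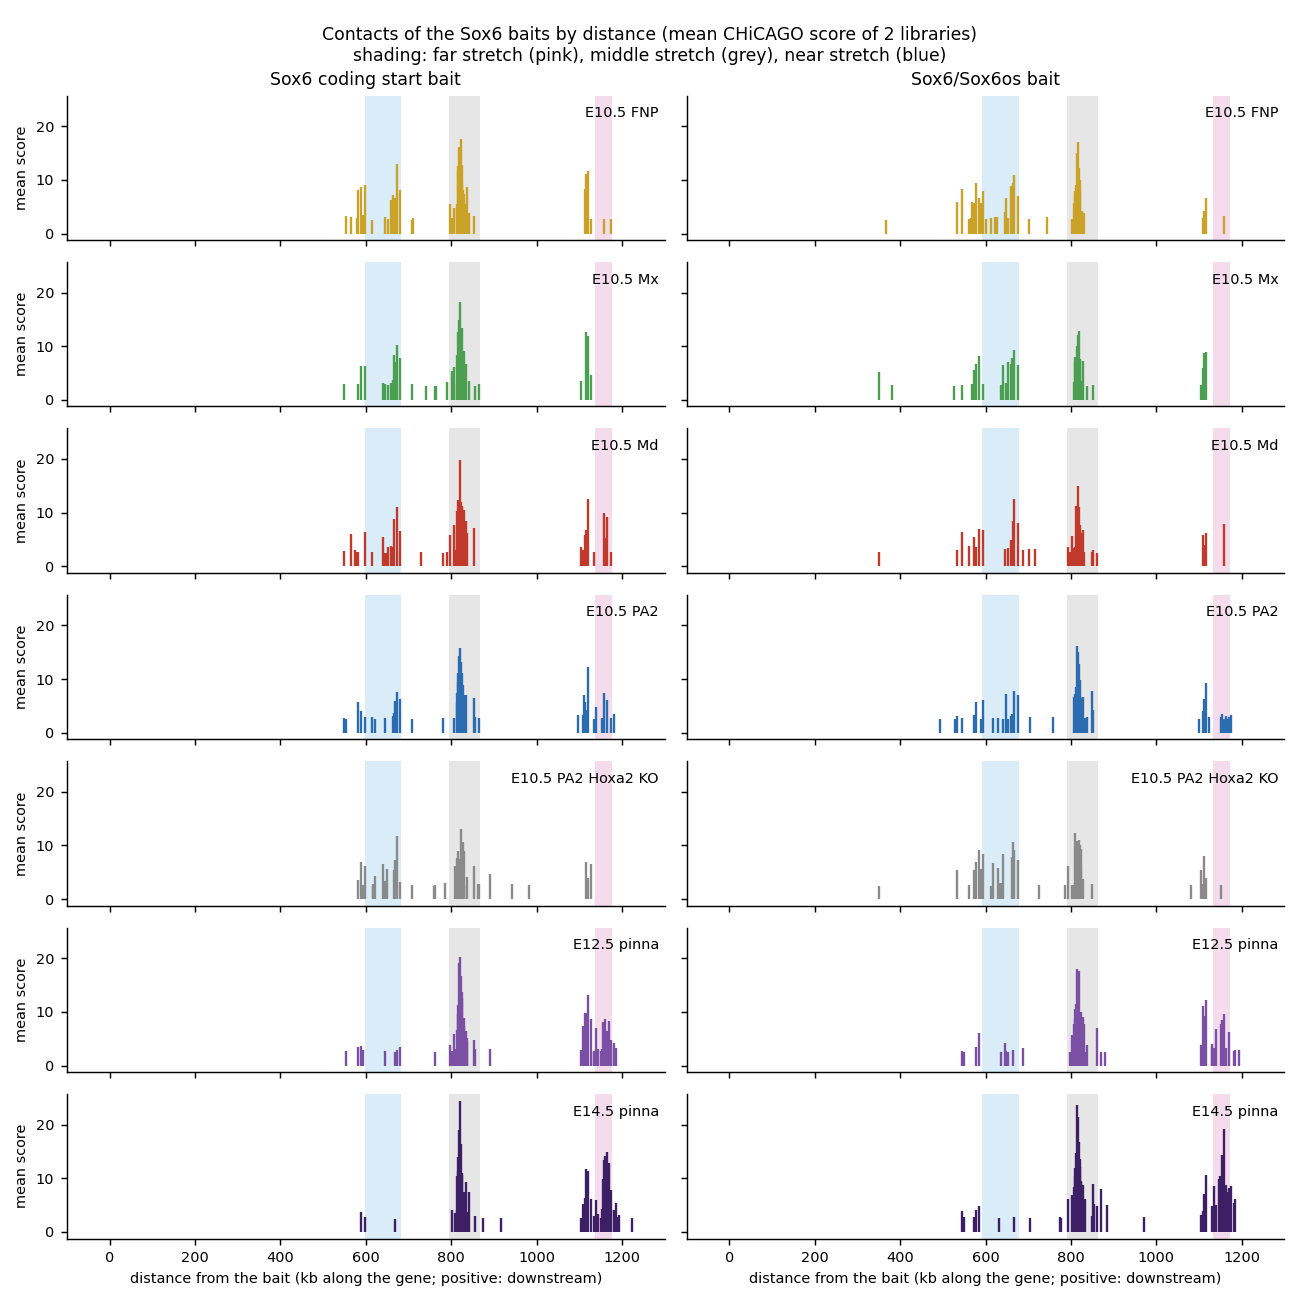
Mean CHiCAGO score over 2 libraries (vertical axis) of each fragment contacted by the Sox6 coding bait (left) and the Sox6os bait (right), against its distance downstream of the start site (horizontal axis, kb), for the 7 groups. Pink, grey and blue shading mark the far, middle and near stretch, and 1 contact of the Sox6os bait lies outside the range drawn. The far stretch fills in the 2 pinna groups while the near stretch thins, and the middle stretch is present in all 7.

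The fragments behind the calls are shown in part, since they carry the change. Windows of 150 bases are given from 2 fragments of the far stretch and 2 of the near stretch, on the plus strand of GRCm38. Each is the window of its fragment with the fewest repeat-masked bases and, among those, the most matches to RUNX (as above), SOX (as above) or the MEIS core TGACAG (reverse complement CTGTCA), all in capitals. MEIS proteins are homeodomain partners of HOX factors.
Far stretch, chr7:114878443-114878592: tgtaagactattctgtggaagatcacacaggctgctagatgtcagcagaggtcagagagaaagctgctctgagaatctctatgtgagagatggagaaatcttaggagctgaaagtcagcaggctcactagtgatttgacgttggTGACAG
Far stretch, chr7:114881648-114881797: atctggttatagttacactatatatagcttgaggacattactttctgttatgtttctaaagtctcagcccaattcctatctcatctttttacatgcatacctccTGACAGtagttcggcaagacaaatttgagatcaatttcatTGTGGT
Near stretch, chr7:115352551-115352700: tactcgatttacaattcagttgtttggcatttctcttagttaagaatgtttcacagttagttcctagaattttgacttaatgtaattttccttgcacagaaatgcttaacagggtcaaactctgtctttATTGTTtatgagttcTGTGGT
Near stretch, chr7:115366259-115366408: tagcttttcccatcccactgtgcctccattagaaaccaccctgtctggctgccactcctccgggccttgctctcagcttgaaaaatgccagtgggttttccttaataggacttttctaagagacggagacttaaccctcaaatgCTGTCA

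Since these windows were picked for their matches, the matches in them are no result. Over consecutive 150-base windows of all listed fragments of chromosome 7, 11.7% held the RUNX core, 7.74% the SOX core and 9.95% the MEIS core. Over the whole length of the 6 fragments gained in the pinna (16 kb), RUNX cores stood at 0.623 per kb, SOX cores at 0.499 and MEIS cores at 1.12. Over the 4 lost fragments (27.5 kb) the densities were 0.8, 0.873 and 0.982. All listed fragments of chromosome 7 held 0.863, 0.567 and 0.74 per kb. These densities were not tested.

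The far stretch, chr7:114863369-114902892, lies 1139 to 1175 kb downstream of the coding start. It was bounded by the gained fragments after their values were seen, so its sums are a description. For the coding bait the summed score was 18.2 and 29.1 in PA2, 66.3 and 65.7 in E12.5 pinna, and 90.1 and 109 in E14.5 pinna. It was 0 and 10.6 in FNP, 0 in both Mx libraries, 31.5 and 23.0 in Md, and 0 in both knockout libraries. All 4 pinna libraries lay above all 10 others, and within E10.5 the Md and PA2 libraries lay above those of FNP, Mx and the knockout.

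The Sox6os bait showed the same order of stages. Its sum over the far stretch was 16.1 and 18.9 in PA2, 46.9 and 56.3 in E12.5 pinna, and 104 and 138 in E14.5 pinna. It was 6.50 and 0 in FNP, 0 in both Mx libraries, 8.67 and 7.23 in Md, and 5.26 and 0 in the knockout. Pinna libraries again lay above all others, and E14.5 above E12.5. The share of the bait's whole strength that fell on this stretch was 9.13% in PA2, 19.1% at E12.5 and 28.2% at E14.5 for the coding bait, and 7.26%, 17.4% and 28.3% for the Sox6os bait.

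Single fragments of the far stretch carried the calls. The fragment chr7:114868774-114872157 was not listed for the coding bait in any of the 10 E10.5 libraries, and scored 9.56 and 6.92 in E12.5 pinna and 13.4 and 12.15 in E14.5 pinna. Its difference from PA2 was 3.02 on the asinh scale (SE 0.45, adjusted p = 0.0116). The fragment chr7:114881587-114883806 was likewise not listed at E10.5 and scored 7.94 and 8.18 in E12.5 pinna and 7.90 and 12 in E14.5 pinna (difference 2.88, SE 0.44, adjusted p = 0.0116).

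The fragment chr7:114877819-114879642 was called for both baits. For the coding bait it scored 6.65 and 10.54 in E12.5 pinna and 13.8 and 14.3 in E14.5 pinna, against 0 in both PA2 libraries, with 5.21 and 5.41 in Md and 0 in the remaining E10.5 libraries (difference 3.08, SE 0.52, adjusted p = 0.0145). For the Sox6os bait it was listed in the 4 pinna libraries only, at 6.04, 6.30, 9.32 and 12.2 (difference 2.79, SE 0.43, adjusted p = 0.0116). Of the 4 pairs called higher, 3 were listed in exactly the 4 pinna libraries, so they passed the filter only through the group where they are high, and 0 in the others stands for any score below 5.

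The fragment between these, chr7:114872158-114877818, was not called. For the coding bait it scored 10.49 and 7.94 in Md and 6.13 and 5.91 in PA2, was listed at 0 in E12.5 replicate 1, and reached 12.8, 12.9 and 16.9 in the other pinna libraries. The remainder of the distal cluster, chr7:114902893-114933428, was contacted at both stages, with sums for the coding bait of 24.75 and 45.35 in PA2, then 54.6 and 65.3 in E12.5 pinna, and 34.7 and 64.4 in E14.5 pinna. Its highest fragment, chr7:114916332-114922107, was listed for the coding bait in 13 libraries, with knockout replicate 1 the exception.

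**Figure D5:**
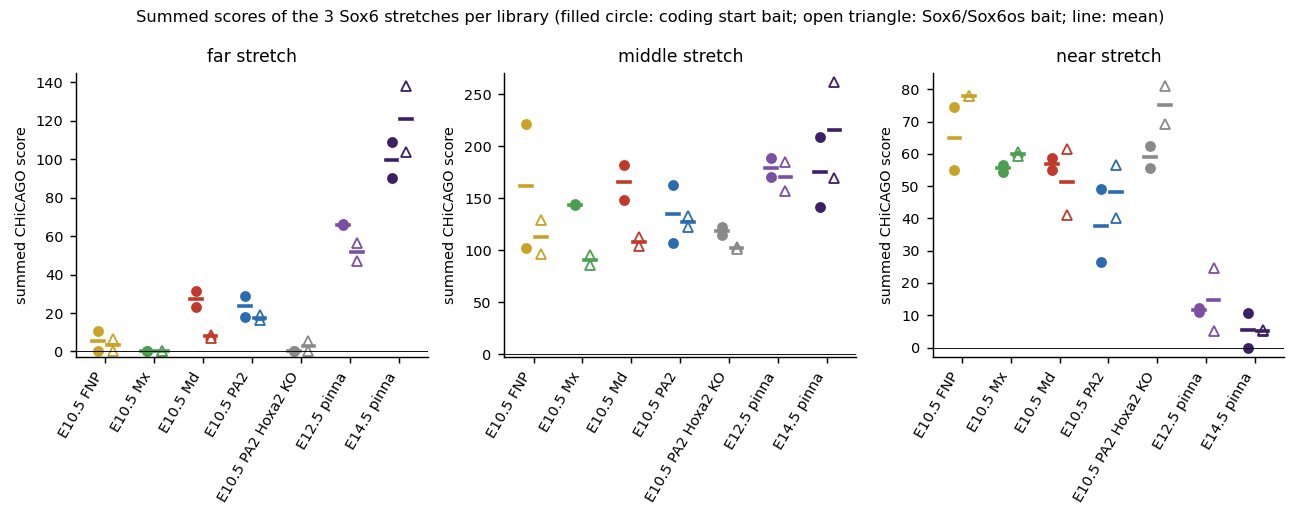
Summed CHiCAGO score (vertical axis) of the far, middle and near stretch of Sox6 contacts in each library of the 7 groups. Filled circles are the Sox6 coding bait, open triangles the Sox6os bait and lines the mean of 2 libraries. The 4 pinna libraries sit highest in the far stretch and lowest in the near stretch, and overlap the E10.5 libraries of the coding bait in the middle stretch.

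The middle stretch, chr7:115172612-115244991, held the strongest contacts of the gene at both stages. For the coding bait its sum was 107 and 163 in PA2, 170.1 and 188 in E12.5 pinna and 142 and 209 in E14.5 pinna, with 102 to 222 over the 8 wild-type E10.5 libraries, so the stages overlapped. It made up 52.4% of the bait's strength in PA2, 52% at E12.5 and 48.7% at E14.5. For the Sox6os bait the sum was 132 and 122 in PA2, then 184 and 157 in E12.5 pinna, and 169 and 261 in E14.5 pinna, and the 4 pinna libraries lay above all E10.5 libraries. No pair of this stretch was called in either comparison of pinna with E10.5.

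The near stretch, chr7:115349390-115444011, lies 599 to 681 kb downstream of the coding start, just beyond the end of Sox6. It too was bounded by fragments chosen after their values were seen. For the coding bait the sum was 26.4 and 48.99 in PA2, 12.4 and 11.0 in E12.5 pinna, and 10.6 and 0 in E14.5 pinna. In the other E10.5 wild-type libraries it ran from 54.5 to 74.4, and in the knockout it was 55.5 and 62.5. For the Sox6os bait it was 56.5 and 40.1 in PA2, then 24.5 and 5.05 in E12.5 pinna, and 5.04 and 5.44 in E14.5 pinna. For both baits the 4 pinna libraries lay below all 10 E10.5 libraries.

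The called fragment of the near stretch was chr7:115349390-115366188 with the Sox6os bait. It scored 6.69 and 7.44 in PA2, 6.57 and 7.53 in FNP, 6.59 and 6.41 in Mx, 6.81 and 9.25 in Md, and 6.63 and 7.78 in the knockout, and no pinna library listed it (difference −2.65, SE 0.40, adjusted p = 0.0116). It thus passed the filter only through the E10.5 groups, where it is high, and 0 in the pinna stands for any score below 5. The next fragment, chr7:115366189-115367456, scored 7.26 to 15.2 for the coding bait in the 8 wild-type E10.5 libraries and was listed in 1 pinna library, E12.5 replicate 2, at 5.96. It was called in the comparison with all E10.5 populations (adjusted p = 0.0101) and not in that with PA2 (adjusted p = 0.125).

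These calls depend on the PA2 libraries. None of the 5 pairs called against PA2 still passed without PA2 replicate 1 or without PA2 replicate 2, where 0 and 1 member pairs passed and the 1 was another pair, while the differences of the 5 pairs kept their sign under every alternative run. On the untransformed score 0 pairs passed against PA2 and 13 against all E10.5 populations. With scores below 10 taken as 0, 22 member pairs were tested and 0 passed in either comparison, and with pairs listed in at least 2 libraries 247 were tested, of which 12 passed against PA2 and 30 against all E10.5 populations. Without E12.5 pinna replicate 2, one of the merged libraries, 7 pairs passed against all E10.5 populations in place of 13, and 7 passed with both merged libraries left out. The median strength of all baits ran from 25.5 to 37.7 in the wild-type E10.5 libraries and from 24.2 to 42.2 in the pinna libraries.

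The total strength of both Sox6 baits overlapped between PA2 and pinna. The coding bait summed to 199 and 318 in PA2, 354 and 337 in E12.5 pinna, and 293 and 425 in E14.5 pinna. It was 211 and 390.5 in FNP, 249.6 and 266 in Mx, 285 and 344 in Md, and 217 and 240.3 in the knockout. PA2 and E14.5 pinna overlapped (difference 0.46, SE 0.27, adjusted p = 0.447). In its order of means only the last step, from Mx to the knockout, exceeded the larger SD.

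The Sox6os bait summed to 287 and 213 in PA2, 369 and 256 in E12.5 pinna, and 345 and 522 in E14.5 pinna. It was 251 and 293 in FNP, 218 and 209 in Mx, 215 and 234 in Md, and 244 and 247 in the knockout. E12.5 replicate 2 lay within the PA2 range and the other pinna libraries above it (difference 0.54, SE 0.24, adjusted p = 0.299). Against all 4 E10.5 populations the difference was 0.59 with an adjusted p of 0.0371. In its order of means only the step from the knockout to Md exceeded the larger SD.

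The 2 Sox6 baits shared most of their contacts, 38 of the 48 and 46 fragments that each listed in at least 4 libraries. The one other bait with contacts in these stretches listed in at least 4 libraries was that of Gm4353. It lies upstream of the Sox6 promoter at chr7:116081742-116086039, and contacted 3 fragments of the distal cluster and 4 of the middle stretch at mean scores of at most 2.69.

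In the Hoxa2 knockout, 3 of the 146 member pairs were called against wild-type PA2, a share close to the 2.09% of all pairs. All 3 were of the Sox6 coding bait. The fragment with its highest mean score, chr7:115216451-115219449 of the middle stretch, scored 7.46 and 7.61 in the knockout against 16.5 and 15.1 in PA2 and 13.8 to 25.9 over all wild-type libraries (difference −0.74, SE 0.13, adjusted p = 0.0141). With the Sox6os bait the same fragment was not called (difference −0.48, SE 0.23, adjusted p = 0.339). The coding bait's sum over the whole middle stretch was 122 and 114 in the knockout, within the PA2 range. The fragment chr7:114925588-114926594, 1113 kb downstream, was listed at 0 in both knockout libraries and at 5.97 and 5.30 in PA2 (difference −2.43, SE 0.48, adjusted p = 0.0251), and also at 0 in both Mx libraries. The fragment chr7:115396574-115398557 scored 6.77 and 6.17 in the knockout, 0 in PA2 and 5.44 and 5.40 in Md (difference 2.57, SE 0.45, adjusted p = 0.0146). It was listed in exactly these 4 libraries, so it passed the filter only through groups where it is high, and 0 stands for any score below 5.

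Of these 3, 2 were lower (1.74% of all pairs were) and 1 was higher (0.359%). Lower calls were the more common over all pairs, 2760 against 571, but with pairs listed in at least 2 libraries 7803 were higher and 4358 lower. The median difference of all baits was −0.20 in this comparison, against 0.01 after quantile normalization. With equal numbers of top pairs or quantile normalization the fragment 1113 kb away no longer passed (adjusted p = 0.639 and 0.12). With equal numbers of top pairs no member pair was called higher, so the fragment called higher was not among the calls there. Without PA2 replicate 1, 0 pairs passed, and without PA2 replicate 2 only the middle-stretch fragment of these 3 did (adjusted p = 0.0489). Between E12.5 and E14.5 pinna 0 of 146 pairs passed, with 12 at an unadjusted p below 0.05, beside 0.862% of all pairs called, and among the 4 E10.5 populations 0 passed, with 16 unadjusted, beside 0.494%.

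Other genes of both lineages were described from 2 lists, of 23 chondrocyte and 25 osteoblast genes. Of the chondrocyte list 24 baits were tested, and 0 passed for pinna against PA2 (5 at an unadjusted p below 0.05), with a median difference of −0.09 against 0.15 for all baits. Of the osteoblast list 22 baits were tested, and 4 were higher (1.27% of all baits were) and 2 lower (0.928%) in the pinna than in PA2, with a median difference of 0.16.

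The 4 osteoblast genes that rose were Alpl, Omd, Ogn and Postn. Alpl, tissue-nonspecific alkaline phosphatase of mineralizing cells, had a bait strength of 0 and 5.32 in PA2, then 26.75 and 34.5 in E12.5 pinna, and 80.7 and 49.98 in E14.5 pinna (difference 2.78, SE 0.59, adjusted p = 0.0169). Omd, encoding the matrix protein osteomodulin, had 32.4 and 116 in PA2, then 125 and 323 in E12.5 pinna, and 411 and 574 in E14.5 pinna (difference 2.24, SE 0.40, adjusted p = 0.0055). Ogn, its neighbour encoding osteoglycin, and Postn, encoding periostin, rose by 1.04 and 1.10 (adjusted p = 0.0495 and 0.0369). Ogn had 164 and 134 in PA2, then 282 and 299 in E12.5 pinna, and 309.6 and 359.7 in E14.5 pinna. Postn had 125 and 118 in PA2, then 247 and 259 in E12.5 pinna, and 218 and 362 in E14.5 pinna. For these 4 genes the pinna libraries lay above both PA2 libraries. For Alpl and Ogn they also lay above every other E10.5 library, but not for Omd and Postn. Omd had 252 and 159 in Md and 183 and 148 in the knockout, above E12.5 pinna replicate 1. Postn had 287 in Mx replicate 2, above all pinna libraries but E14.5 replicate 2.

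The 2 genes that fell were Msx2, a homeobox gene, and Col1a2, encoding a chain of type I collagen. Msx2 had 176 and 97.9 in PA2, then 64.2 and 38.3 in E12.5 pinna, and 6.57 and 30.6 in E14.5 pinna (difference −2.03, SE 0.39, adjusted p = 0.00815). Col1a2 had 135 and 83.8 in PA2, then 35.6 and 47.5 in E12.5 pinna, and 17.4 and 27.9 in E14.5 pinna (difference −1.66, SE 0.38, adjusted p = 0.0273). For both genes the pinna libraries lay below both PA2 libraries. For Msx2 they also lay below every other E10.5 library, while Col1a2 had 44.1 in Md replicate 1, within the pinna range. Against all 4 E10.5 populations, where stage and position cannot be told apart, the same 6 osteoblast genes passed in the same directions. Of the chondrocyte list Snorc and Matn4 were higher (4.67% of all baits were) and Col11a2, Mia and Comp lower (4.24%), beside 8.92% called in all.

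The osteoblast calls against PA2 and the chondrocyte calls against all 4 E10.5 populations depended on single libraries, in a recount added after seeing the data. Of the 6 osteoblast genes called against PA2, 0 still passed without PA2 replicate 1 and 2, Msx2 and Omd, without PA2 replicate 2. With scores below 10 taken as 0 it was 1, Omd. Without E12.5 pinna replicate 2 it was 4, with Ogn and Postn no longer called. Of the 5 chondrocyte genes, leaving out 1 library left 1 to 4 called, with 1 without PA2 replicate 2, 2 without E12.5 pinna replicate 2, and 4 without Mx replicate 2, Md replicate 1 or PA2 replicate 1.

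The baits whose group means over the 7 groups were most like those of a member, by Pearson's r of log2(strength + 5) among 11184 baits of protein-coding genes, were given as a description only, since a best match among so many is high by construction. They were Lrrc8c (0.974) for the Runx2 proximal bait, Net1 and Tubal3 (0.976) for the distal bait, the bait of Ebi3, Yju2 and Zfp119b (0.988) for Sp7, and Ugdh (0.980) for Acan. For Sox5 it was Jsrp1 (0.994), for the Sox6os bait Atp5o (0.983) and for the coding bait Ndp (0.991).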

How the data were processed

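PCHi-C was done on 14 libraries of sorted mouse CNCCs, 7 groups of 2. The authors mapped and filtered read pairs with HiCUP 0.6.1 and called contacts with CHiCAGO 1.24.0 on GRCm38/mm10; per the submitters' notes bcl2fastq 2.17 was also used. The deposited unit is the CHiCAGO score, a weighted −ln p per pair of HindIII fragments against a background fitted in each library, listed from 5 upward. Such scores depend on depth, which was not given in the sources used here, so no counting interval could be given.

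Baits were joined to GENCODE vM21 start sites. A pair that a library did not list was set to 0. Bait strength, the sum of same-chromosome scores, was fitted as log2(strength + 5) for baits listed in at least 4 libraries, and pairs listed in at least 4 libraries as asinh(score). Both used limma 3.58.1 (R 4.3.3; lmFit and eBayes with a trend) with 7 group means over all 14 libraries, and Benjamini-Hochberg adjustment over all features with a threshold of 0.05. The script was tested on simulated data. Tables were made with Python 3.11.15, pandas 2.3.3 and NumPy 2.4.6. Contacts to describe were the 6 fragments with the highest mean score of each bait, the farthest listed in at least 7 libraries, every called fragment and every bait contacted in at least 7 libraries; further named fragments and the Sox6 stretches were picked with their values in view. The members and gene lists were chosen with earlier results of these data known. Alternatives covered the score threshold, scale, scaling between libraries, filters, replicate block and each library left out.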

Additional observations from a re-analysis of the deposited data

How the results depend on the processing

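The 4 comparisons of bait strength gave 0 member calls under every other setting run, and 2 for pinna when all 4 E10.5 populations, added after seeing the data, stood for the earlier stage. For pinna against PA2, the 5 called pairs became 0 with scores below 10 taken as 0, 0 on the untransformed score, 12 with pairs listed in at least 2 libraries, and 13 with all 4 E10.5 populations; leaving out 1 library gave 0 to 8. For E14.5 against E12.5 pinna, 0 became 6 with pairs listed in at least 2 libraries and 2 with both merged libraries left out (added after seeing the data), and 0 to 2 with 1 library left out. For the knockout, 3 became 0 on the untransformed score, 7 with at least 2 libraries, 5 without both merged libraries, and 0 to 5 with 1 library left out. Among the E10.5 populations, 0 became 7, 4, and 0 to 2 in the same order.

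The sign of the difference from PA2 to pinna turned for Sp7, to 0.070 with scores below 10 taken as 0, and ran from −0.74 to 0.12 with 1 library left out (0.12 without E14.5 pinna replicate 2). For Acan it turned to −0.016 with equal numbers of top-scoring pairs, −0.076 within 2 Mb and −0.028 after quantile normalization, and ran from −0.025 to 0.34 with 1 library left out (−0.025 without E14.5 pinna replicate 2). The cause was not tested. The differences of the 8 called pairs kept their sign in all 173 values, and 28 of these no longer passed.

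Replicate numbers did not pair the samples (correlation of deviations between same-numbered libraries over baits −0.09 to 0.14). With the replicate block, 5 member pairs were called for pinna against PA2, 0 between pinna stages, 3 for the knockout and 0 among E10.5 populations, and no member bait. Counts over all features moved more. Outside the exclusions of single libraries, baits called ran from 167 to 756 for pinna against PA2 (484 as reported), 17 to 38 between pinna stages (28) and 123 to 527 for the knockout (269), and pairs from 81 to 10554 (2489), 0 to 6553 (1371), 5 to 12161 (3331) and, among E10.5 populations, 1 to 7507 (786). With 1 library left out, baits called ran from 68 to 795 for pinna against PA2 (95 without PA2 replicate 1, 68 without PA2 replicate 2, 795 without E12.5 pinna replicate 1, 312 without E14.5 pinna replicate 2), from 16 to 50 between pinna stages and from 51 to 424 for the knockout (53 and 51 without PA2 replicate 1 and 2, 79 and 164 without knockout replicate 1 and 2, 413 and 424 without E12.5 pinna replicate 1 and 2). Pairs ran from 861 to 4214, 1097 to 2696, 3044 to 4927 and 0 to 1350, so the shares of all features called that stand beside the members depend on these libraries too.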

Other observations

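The member baits also had listed pairs on other chromosomes, which no comparison used. There were 69 in E12.5 pinna replicate 2 and 34 in Md replicate 1, the merged libraries, and 0 to 2 in each of the other libraries.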
